A study of Mus musculus with 10 samples.

Results

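The genes described are those of the channels that let calcium into the cell or release it from the endoplasmic or sarcoplasmic reticulum: voltage-gated calcium channel subunits (Cacna, Cacnb, Cacng), ryanodine receptors (Ryr), inositol trisphosphate (IP3) receptors (Itpr), the store-operated pair Stim and Orai, and the TRPC, TRPM and TRPV cation channels. Members were chosen by gene symbol alone, and each gene was read on its probe set (the group of short probes for 1 transcript) with the highest mean over all arrays. The rule found 53 genes among 18193 with a probe set of a single platform symbol. One of them, Trpc4ap, encodes a protein that binds TRPC4 and is no channel, and Trpm4 and Trpm5 encode channels that pass monovalent cations and are opened by calcium. Cacna1i, Cacnb3, Itpr1, Trpv3 and Trpv5 were not analysed here.

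The study profiled total RNA of the aorta of male C57BL/6 mice on 1-colour Affymetrix arrays. The knockout mice (L-PGDS KO) lack the lipocalin-type synthase of prostaglandin D2, encoded by Ptgds, and the controls were wild type. Per the labels both genotypes ate chow under equal hours of light and dark; the age, the substrain, the part of the gene removed and any shared litter are not given in the sources used here. Of 5 wild type samples, replicate 2 was excluded by the submitters and has no values, so the comparison holds 4 wild type arrays (replicates 1, 3, 4 and 5) and 5 knockout arrays (replicates 1 to 5), labelled biological replicates.

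In arterial smooth muscle, depolarisation opens L-type channels, and the calcium that enters binds calmodulin and starts contraction. Receptors coupled to Gq raise IP3, which opens IP3 receptors on the reticulum, and emptied stores are sensed by STIM proteins that open ORAI pores in the plasma membrane. Ryanodine receptors release stored calcium, and TRP channels add cation entry in smooth muscle, endothelium and nerve.

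Ptgds checks the genotype labels. Its log2 values were 9.11, 10.31, 8.79 and 8.68 on the wild type arrays and 3.86, 3.92, 3.76, 3.67 and 4.40 on the knockout arrays, in replicate order. The change, knockout minus wild type, was −5.30 (log2, SE 0.32; adjusted p = 0.00059, limma; exact two-sided permutation p = 0.0079, the smallest that 4 against 5 arrays allow), and the knockout arrays lay near the background of the array. Array medians ran from 5.88 to 5.97. Mean correlations with the other arrays ran from 0.990 to 0.992, except wild type replicate 3 at 0.983. Means of marker lists for other cell types in the preparation differed widely between single arrays. The mean log2 value of 14 neuron markers (Th, Dbh, Snap25 and others) was 10.49 on wild type replicate 3, 8.65 on knockout replicate 1 and 7.15 on wild type replicate 4, against 4.52 to 5.47 on the other 6 arrays. The mean of 12 skeletal muscle markers was 9.34 on knockout replicate 3 and 4.70 to 5.15 elsewhere. The mean of 10 smooth muscle markers, the cells that make up the media of the aorta, lay between 12.22 and 12.43 on all 9 arrays. Of these 10, 8 lay above 0, as did 56.7% of all tested genes, and 0 passed an adjusted p of 0.05. At an unadjusted p under 0.05 (limma) there were 4, or 40% against 19.9% of all tested genes. Tagln, Smtn and Lmod1 were higher in the knockout and Myocd was lower. All tested markers of adipocytes (8), brown adipocytes (9) and macrophages (9) lay below 0 in the knockout, where 56.7% of all tested genes lay above 0. Their medians were −0.29, −0.39 and −0.25, and 0 of them passed an adjusted p of 0.05. At an unadjusted p under 0.05 (limma) 2, 3 and 1 of them were lower, as were 7.12% of all tested genes. The adipocyte median was −0.15 without knockout replicate 5, the brown adipocyte median −0.21 without that array and −0.22 without wild type replicate 3, and the macrophage median −0.12 when wild type replicate 5 was left out and −0.44 when wild type replicate 4 was. Their part in the channel values was not tested.

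Of the 53 channel genes, 41 were tested, that is, had a log2 value over 4 on at least 4 arrays. Of these, 0 passed an adjusted p of 0.05 (limma, Benjamini-Hochberg over 14321 genes), the smallest adjusted p being 0.136; over all genes 8 passed, or 0.0559%. At an unadjusted p under 0.05 there were 5 channel genes, or 12.2% of those tested, against 19.9% of all tested genes: 1 was higher in the knockout (Trpm4; 12.8% of all genes were higher at this p) and 4 were lower (Itpr2, Trpc1, Trpv4 and Cacna1a; 7.12% of all genes were lower). The wild type and knockout arrays did not overlap for Trpm4 and Itpr2, 4.88% of the tested channel genes, against 6.76% of all genes. In all 26 channel genes lay above 0 and 15 below (63.4% above, against 56.7% of all genes), with a median change of 0.062 against 0.027 over all tested genes. By direction, 2.44% of the tested channel genes were higher and 9.76% lower at an unadjusted p under 0.05, and none is called changed. The 95% confidence interval of the change lay within −0.5 and 0.5 for 24 of the 41 and within −1 and 1 for 39, so the arrays bound most of these differences at less than 2-fold.

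**Figure D1:**
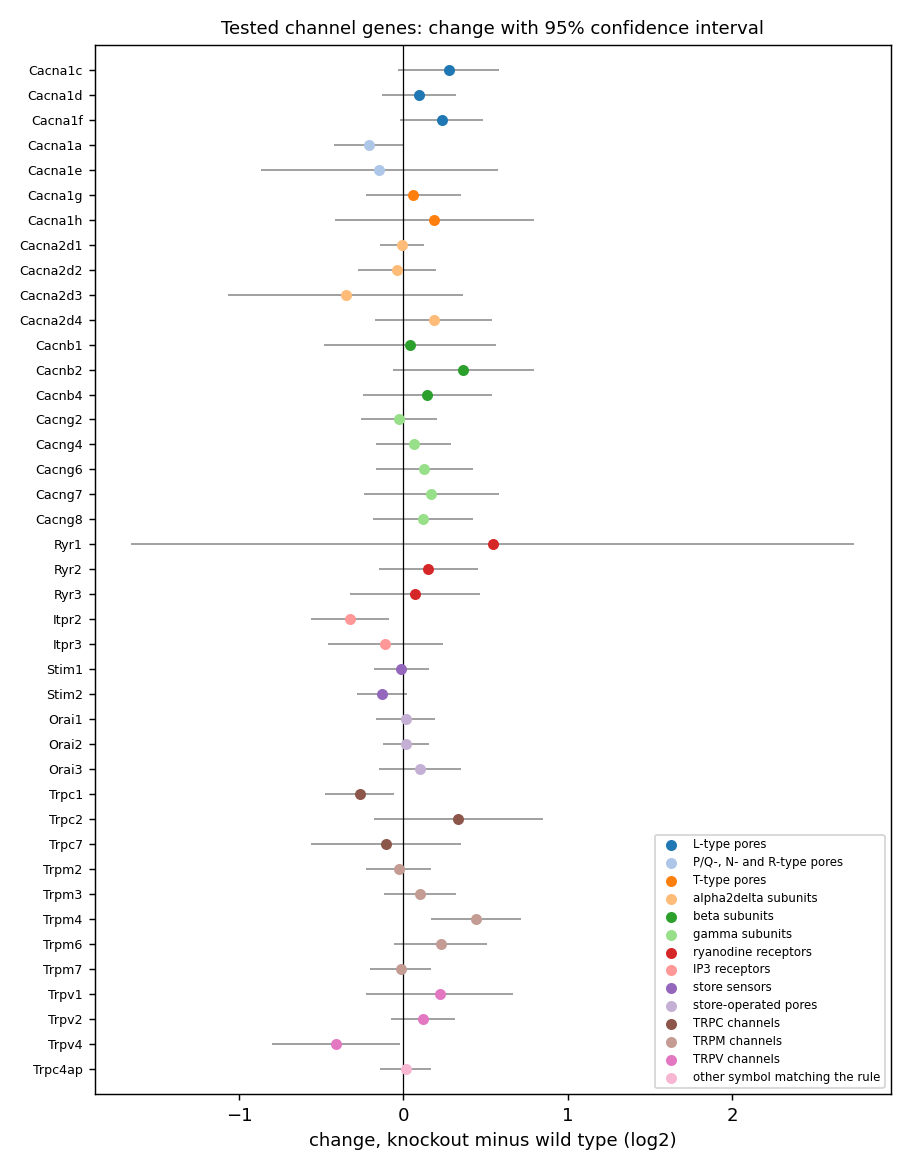
Change of the 41 tested channel genes (knockout minus wild type, log2, x axis) with its 95% confidence interval from limma, 4 wild type against 5 knockout arrays; colours mark the gene families. Trpm4 is the gene farthest above 0 with an interval that leaves out 0, Trpv4 the gene farthest below, and Ryr1 has by far the widest interval.

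Single arrays mattered for this count. Without wild type replicate 1, 1071 of 14284 genes (7.5%) passed, and among the channels Trpm4 alone was then called (change 0.53, adjusted p = 0.036, limma). Leaving out any other single array gave 2 to 16 calls over all genes and 0 among the channels.

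The L-type pores carry the main voltage-gated calcium current of arterial muscle, and 0 of the 3 tested passed. Cacna1c (Cav1.2), the pore that sets arterial tone, read 10.88, 10.22, 10.79 and 10.38 on the wild type arrays and 10.93, 10.81, 10.72, 10.79 and 10.96 on the knockout arrays. The knockout arrays lay close together, while wild type replicates 3 and 5 were lower than the rest, and the groups overlapped. The change was 0.27 (SE 0.14, 95% interval −0.03 to 0.58, adjusted p = 0.297, limma), and on the second probe set of Cacna1c it was −0.03 (SE 0.11), so the direction of the brighter one is not shared. Cacna1d (Cav1.3), on a probe set whose identifier marks probes shared between transcripts, read 10.92, 10.57, 11.04 and 10.86 in wild type and 10.86, 11.11, 10.87, 10.92 and 10.94 in knockout aortas, a change of 0.09 (SE 0.10, adjusted p = 0.624, limma). Wild type replicate 3 was its lowest array. Cacna1f, the pore known from the retina, lay low, between 4.25 and 4.91, with a change of 0.23 (SE 0.11). Cacna1s, the skeletal muscle pore, was not tested.

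Of the pores of nerve terminals and the T-type pores, which open at more negative voltage, 0 of the 4 tested passed. Cacna1a (Cav2.1, the P/Q-type pore) read 7.67, 7.87, 7.52 and 7.57 in wild type and 7.51, 7.56, 7.47, 7.21 and 7.49 in knockout aortas. Knockout replicate 4 was the lowest array and wild type replicate 3 the highest, and the groups overlapped by the value of knockout replicate 2. The change was −0.21 (SE 0.09, unadjusted p = 0.0499, adjusted p = 0.251, limma). Without wild type replicate 3 it was −0.14 (adjusted p = 0.459), and 3 of the 4 Cacna1a probe sets were below 0 in the knockout. Cacna1e (R-type) changed by −0.15 (SE 0.32) and Cacna1h by 0.19 (SE 0.27). Cacna1g, a T-type pore, lay between 6.02 and 6.47 in wild type and between 6.04 and 6.57 in knockout aortas, a change of 0.06 (SE 0.13).

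The auxiliary subunits, which bring the pores to the membrane and set their gating, showed no called change either. Cacna2d1, an α2δ subunit found in vascular muscle, had the narrowest spread of all channel genes tested, 12.49 to 12.68 over the 9 arrays, with a change of −0.01 (SE 0.06, 95% interval −0.14 to 0.12). The other 3 α2δ genes changed by −0.35 (Cacna2d3, SE 0.32), −0.04 (Cacna2d2, SE 0.10) and 0.18 (Cacna2d4, SE 0.16). Cacnb2, a β subunit of heart and vessel, read 7.03, 6.49, 7.21 and 6.67 in wild type and 7.36, 7.03, 7.10, 6.91 and 7.66 in knockout aortas. Its change was 0.36 (SE 0.19, adjusted p = 0.316, limma), and wild type replicates 3 and 5 were again the 2 lowest arrays. Cacnb1 and Cacnb4 changed by 0.04 (SE 0.23) and 0.15 (SE 0.17). Of the 8 γ subunit genes, which include the regulators of AMPA-type glutamate receptors, 5 were tested. Cacng8 read 5.42, 5.71, 6.05 and 5.76 in wild type and 5.57, 5.80, 5.95, 5.90 and 6.06 in knockout aortas, a change of 0.12 (SE 0.14). Cacng2, Cacng4, Cacng6 and Cacng7 changed by −0.03 (SE 0.10), 0.06 (SE 0.10), 0.13 (SE 0.13) and 0.17 (SE 0.18).

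The intracellular release channels held no call. The 2 tested IP3 receptor genes lay below 0 and the 3 ryanodine receptor genes above, Ryr1 and Ryr3 through 1 array each. Itpr2 encodes the IP3 receptor with the highest affinity for its ligand. On 1424834_s_at it read 9.51, 9.99, 9.54 and 9.51 in wild type and 9.18, 9.38, 9.36, 9.31 and 9.34 in knockout aortas. The identifier of this probe set marks probes shared between transcripts. Every knockout value was under the lowest wild type value, the nearest pair being 9.38 and 9.51, and wild type replicate 3 stood apart as the highest. The change was −0.32 (SE 0.11, 1.25-fold lower, 95% interval −0.56 to −0.09, unadjusted p = 0.013, adjusted p = 0.161, limma). Without wild type replicate 3 it was −0.21 (SE 0.06, unadjusted p = 0.0092, adjusted p = 0.250, limma), over 1.5 times smaller. Over all genes 2196 then had an unadjusted p under 0.05, against 2847 with all arrays.

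Itpr2 has 6 probe sets, of which 4 were tested, and all 4 were lower in the knockout. Beside 1424834_s_at, described above, 1424833_at changed by −0.63 (SE 0.18, unadjusted p = 0.0059), 1427287_s_at by −0.44 (SE 0.16, unadjusted p = 0.022) and 1444418_at by −0.55 (SE 0.33, unadjusted p = 0.128), with adjusted p-values of 0.142 to 0.395 over all 26504 tested probe sets (limma). On these 3 the groups overlapped, since wild type replicate 1 lay within the knockout range or, on 1444418_at, under it. Probe sets of 1 gene share the arrays and are not independent replicates. The identifier of 1427287_s_at carries the same mark of shared probes as that of 1424834_s_at. With _s_at and _x_at probe sets left out, Itpr2 was read on 1444418_at, with an unadjusted p of 0.133 (limma).

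**Figure D2:**
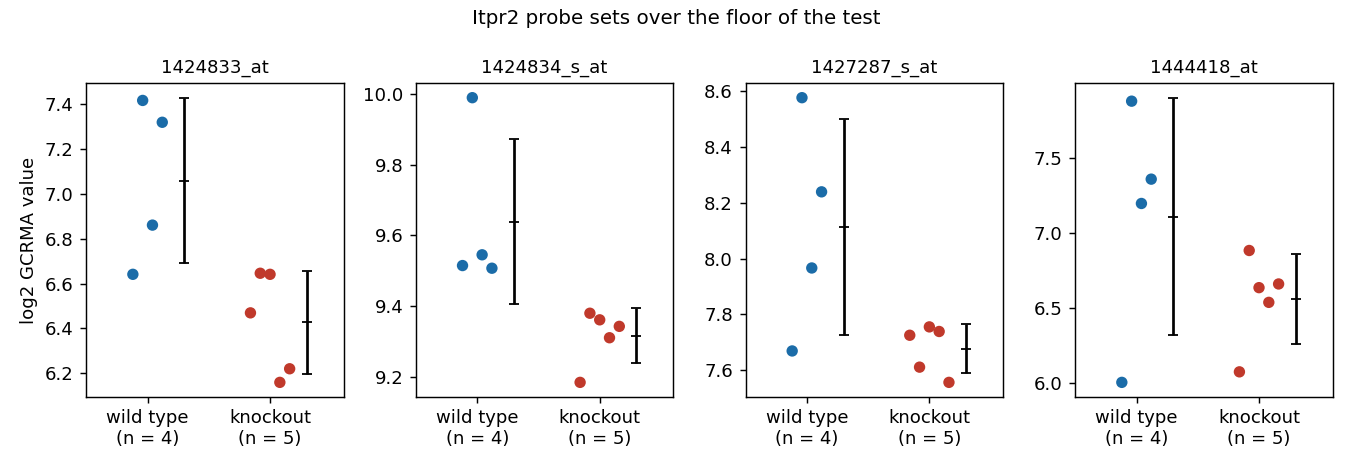
Log2 value of each array (points) on the 4 tested Itpr2 probe sets, with mean ± SD to the right, for 4 wild type and 5 knockout arrays; each panel has its own scale and probe sets are not to be compared in level. The knockout mean is lower on all 4, and wild type replicate 3 is the highest point of each panel.

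Itpr3 changed by −0.11 (SE 0.16). Ryr2, the ryanodine receptor of heart and smooth muscle, read 10.50, 10.27, 10.77 and 10.18 in wild type and 10.40, 10.46, 10.56, 10.64 and 10.84 in knockout aortas, a change of 0.15 (SE 0.13, adjusted p = 0.548, limma). Cardiomyocyte markers differed between arrays, with a list mean of 6.25 to 8.30 on the wild type and 6.16 to 7.51 on the knockout arrays (Myh6, the atrial myosin chain, from 4.03 on wild type replicate 1 to 10.32 on wild type replicate 4); their part in the Ryr2 values was not tested. Ryr3 changed by 0.07 (SE 0.18), with knockout replicate 4 at 6.46 above the 5.55 to 5.88 of the other arrays. The other knockout arrays read 5.55 to 5.73, under the wild type mean of 5.74, so its sign rests on that array.

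Ryr1, the release channel of skeletal muscle, was decided by 1 array. It read 5.11, 4.89, 4.67 and 4.91 in wild type and 4.70, 4.25, 9.32, 4.31 and 4.62 in knockout aortas. Knockout replicate 3 alone was high, the same array on which 11 of the 12 skeletal muscle markers were highest. With this array the change was 0.54 (SE 0.97, adjusted p = 0.784, limma); without it the change was −0.43 (SE 0.13, unadjusted p = 0.012, adjusted p = 0.226), so the sign turned. The second probe set of Ryr1 read 5.13 on knockout replicate 3 and 2.88 to 3.25 elsewhere. Cacna1s, whose product touches RYR1 at the skeletal muscle triad, was over the floor only on that array, at 4.11 against 3.19 to 3.40 on the other 8. These 2 were the channel genes that were highest on knockout replicate 3 by more than 0.5, or 3.77% of 53, against 0.335% of all 18193 genes.

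A second pair followed the neuron markers. Cacna1b (Cav2.2), the N-type pore that triggers transmitter release from sympathetic nerves, read 2.92, 7.85, 4.89 and 3.23 in wild type and 6.07, 3.24, 3.29, 3.38 and 3.15 in knockout aortas. Cacng5, a γ subunit gene, read 2.83, 6.65, 4.09 and 2.86 in wild type and 5.06, 3.16, 2.91, 3.03 and 2.80 in knockout aortas. Both were high on wild type replicate 3, then knockout replicate 1, then wild type replicate 4, which is the order of the neuron marker mean, and both lay under the floor on the other 6 arrays. They were the 2 channel genes whose 3 highest arrays were these 3, 3.77% of 53 against 1.95% of all genes. Since both were over the floor on only 3 arrays, neither was tested between genotypes. Of the other Cacna1b probe sets, 1436602_x_at read 7.84 on wild type replicate 3 and 5.54 on knockout replicate 1, and 1439612_at too was highest on these 2 arrays. The pattern was not shared by 1425812_a_at of Cacna1b, which read 3.37 to 3.92 over the arrays, nor by the second Cacng5 probe set, 1426330_at, which read 2.54 on wild type replicate 3 and 2.46 to 2.94 over all arrays; both lay below the floor throughout.

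**Figure D3:**
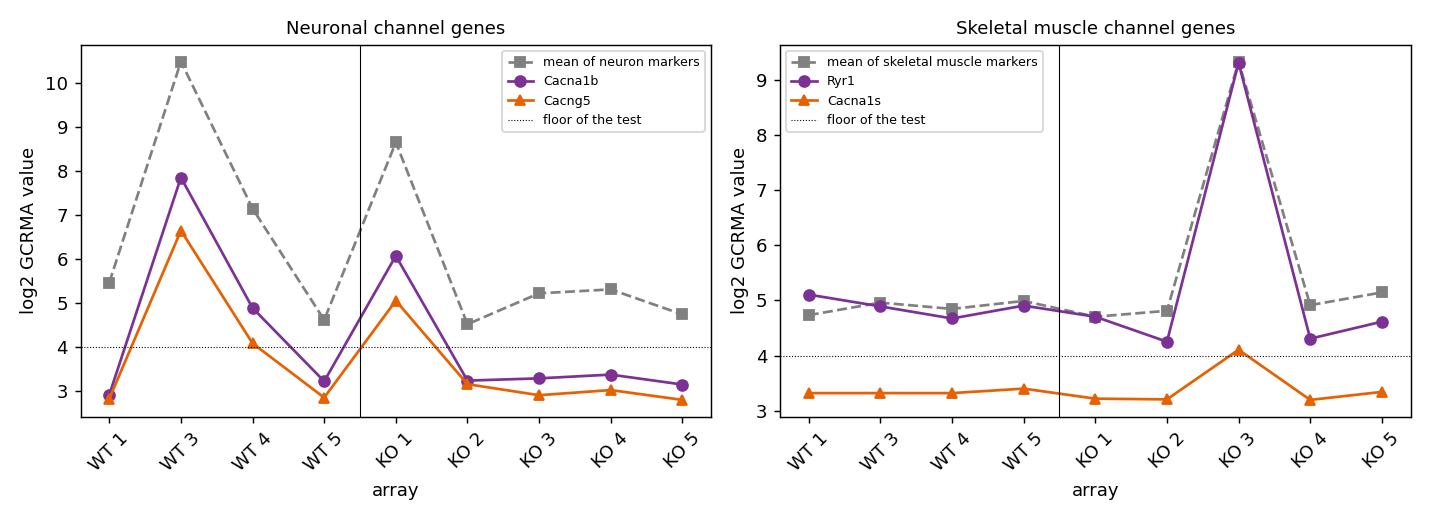
Log2 values of Cacna1b and Cacng5 with the mean of 14 neuron markers (left), and of Ryr1 and Cacna1s with the mean of 12 skeletal muscle markers (right), on each of the 9 arrays (WT wild type, KO knockout); the dotted line is the floor of 4 used for the test. The left pair peaks on WT 3, KO 1 and WT 4, and the right pair on KO 3.

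The RefSeq promoter windows of Cacna1b, Cacng5, Ryr1 and Cacna1s are shown, with the motif GGGCGG on either strand in capitals. Each window holds 250 bases upstream of the annotated start (GRCm38.p6), 5′ to 3′ on the strand of the gene. The window of Cacna1b is chr2:24763153-24763402 (minus strand), of Cacng5 chr11:107915056-107915305 (minus, the first of 2 listed starts), of Ryr1 chr7:29125152-29125401 (minus) and of Cacna1s chr1:136052561-136052810 (plus).
Cacna1b: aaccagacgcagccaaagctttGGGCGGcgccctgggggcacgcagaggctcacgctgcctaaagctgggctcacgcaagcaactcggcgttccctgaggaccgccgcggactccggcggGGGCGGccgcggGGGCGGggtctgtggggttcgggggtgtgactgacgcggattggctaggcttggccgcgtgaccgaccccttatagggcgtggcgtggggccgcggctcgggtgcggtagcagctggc
Cacng5: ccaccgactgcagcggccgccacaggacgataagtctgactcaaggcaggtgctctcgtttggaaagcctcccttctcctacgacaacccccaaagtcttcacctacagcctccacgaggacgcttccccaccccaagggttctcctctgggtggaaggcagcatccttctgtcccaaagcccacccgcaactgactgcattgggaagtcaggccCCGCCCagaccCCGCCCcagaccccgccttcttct
Ryr1: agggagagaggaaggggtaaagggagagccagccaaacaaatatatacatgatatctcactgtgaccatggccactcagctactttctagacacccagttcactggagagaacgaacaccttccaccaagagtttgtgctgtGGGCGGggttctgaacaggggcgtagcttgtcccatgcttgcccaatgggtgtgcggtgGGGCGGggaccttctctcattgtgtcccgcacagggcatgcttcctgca
Cacna1s: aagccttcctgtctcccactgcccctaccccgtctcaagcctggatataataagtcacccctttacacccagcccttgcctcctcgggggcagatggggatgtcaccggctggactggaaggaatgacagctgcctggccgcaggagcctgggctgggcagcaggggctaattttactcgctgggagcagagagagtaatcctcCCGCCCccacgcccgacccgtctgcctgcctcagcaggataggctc
GGGCGG occurred 3 times upstream of Cacna1b, 2 times at Cacng5, 2 times at Ryr1 and once at Cacna1s, and 32.7% of all 32851 windows of this length hold it. The E-box CANNTG, which reads the same on both strands and cannot overlap GGGCGG by more than its end base, occurred 1, 2, 0 and 2 times in the same order, where 66.2% of all windows hold it. The windows were 72.0%, 62.0%, 54.8% and 62.4% G or C, against a median of 52.4% over all windows. These matches describe the letters of the windows only. A window was listed for 45 of the 53 channel genes.

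Of the store-operated genes, sensors and pores, 0 of the 5 tested passed. Stim1, a sensor of reticulum calcium, lay between 8.04 and 8.33 over the 9 arrays (change −0.01, SE 0.07, 95% interval −0.18 to 0.16), on a probe set whose identifier marks possible cross-hybridisation. Its second probe set, 1448320_at, ranged from 6.60 to 7.52 with a change of −0.19 (SE 0.16). Stim2, the sensor that answers to smaller losses, changed by −0.13 (SE 0.07, adjusted p = 0.315, limma), reading 10.75, 10.72, 10.81 and 10.95 in wild type and 10.59, 10.59, 10.72, 10.76 and 10.72 in knockout aortas. Orai1, the classic pore of this pathway, read 7.11 to 7.36 in wild type and 7.12 to 7.39 in knockout aortas, a change of 0.01 (SE 0.08, 95% interval −0.17 to 0.19). Orai3 read 8.15, 7.68, 7.91 and 7.74 in wild type and 8.07, 7.95, 8.12, 7.77 and 7.93 in knockout aortas, a change of 0.10 (SE 0.11), and Orai2 changed by 0.02 (SE 0.06).

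TRP channels held 3 of the 5 genes with an unadjusted p under 0.05 (limma). These were 1 of the 3 TRPC, 1 of the 5 TRPM and 1 of the 3 TRPV genes tested, where 19.9% of all tested genes met this p. Trpm4, a calcium-activated channel that depolarises arterial muscle when stretched, read (1435549_at) 9.46, 8.94, 9.38 and 9.04 in wild type and 9.56, 9.60, 9.64, 9.57 and 9.87 in knockout aortas. Every knockout value was over the highest wild type value, by a narrow gap between 9.46 and 9.56. The change was 0.44 (SE 0.12, 1.36-fold higher, 95% interval 0.17 to 0.71, unadjusted p = 0.0053, adjusted p = 0.136, limma), and it rests on the only probe set of the gene. Without wild type replicate 3 it was 0.35 (adjusted p = 0.259). Wild type replicates 3 and 5 were its lowest arrays, as they were for Cacna1c, Cacnb2, Orai3, Ryr2 and Trpc2. These 6 are 14.6% of the tested channel genes, where 16.7% of all tested genes and 5 of the 10 smooth muscle markers (Myh11, Smtn, Lmod1, Mylk and Synpo2) have the same 2 lowest arrays. The part of this shared array pattern in the Trpm4 difference was not tested.

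Trpc1, a receptor-operated channel subunit, read 9.80, 9.72, 10.09 and 10.11 in wild type and 9.72, 9.56, 9.61, 9.72 and 9.71 in knockout aortas. Wild type replicates 4 and 5 were high, and knockout replicates 1, 4 and 5 lay close to wild type replicate 3. The change was −0.26 (SE 0.09, 1.20-fold lower, unadjusted p = 0.019, adjusted p = 0.180, limma), and the second probe set, near the floor, changed by −0.15 (SE 0.11). Without wild type replicate 4 or 5 the change was −0.21 (limma, unadjusted p = 0.058 and 0.059). Trpc2, whose product serves the vomeronasal organ, changed by 0.33 (SE 0.23) and Trpc7 by −0.10 (SE 0.20).

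Trpv4, an osmosensitive and mechanosensitive channel of endothelium and smooth muscle, read 6.77, 6.14, 5.95 and 6.69 in wild type and 5.81, 6.04, 6.15, 5.92 and 5.96 in knockout aortas. Wild type replicates 1 and 5 were high, and the other 2 wild type arrays lay within the knockout range. The change was −0.41 (SE 0.17, 1.33-fold lower, unadjusted p = 0.040, adjusted p = 0.230, limma). Without wild type replicate 1 it was −0.29 and without replicate 5 −0.31, with unadjusted p-values of 0.117 and 0.116 (limma). Endothelial markers lay lower beside it: 9 of 10 were below 0, where 56.7% of all tested genes lay above 0. Of these 10, 0 passed and 4 were lower at an unadjusted p under 0.05 (limma), as were 7.12% of all tested genes. The list mean was 8.95 to 9.36 on the wild type and 8.73 to 9.07 on the knockout arrays. Their part in the Trpv4 value was not tested, and in bulk tissue fewer cells of a type and less RNA per cell cannot be told apart.

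**Figure D4:**
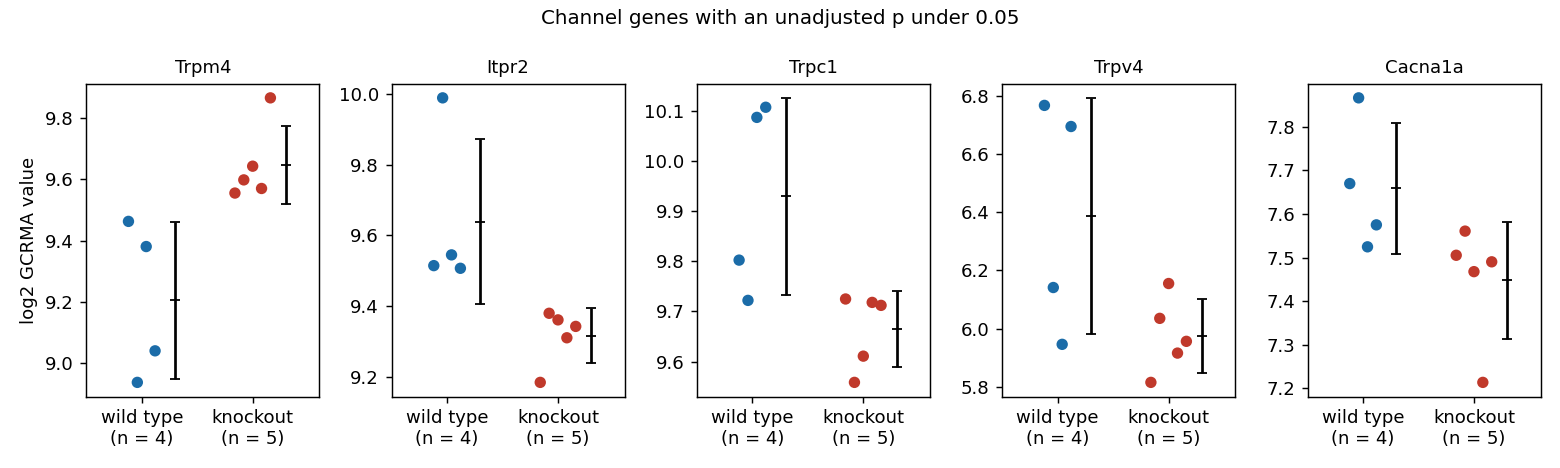
Log2 value of each array (points) for the 5 channel genes with an unadjusted p under 0.05, with mean ± SD to the right, for 4 wild type and 5 knockout arrays; each panel has its own scale. The groups are separate for Trpm4 (higher in the knockout) and Itpr2 (lower) and overlap for Trpc1, Trpv4 and Cacna1a.

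None of the remaining TRP genes tested had an unadjusted p under 0.05. Trpm7, a channel joined to a kinase and known for magnesium balance, stood between 10.42 and 10.75 with a change of −0.02 (SE 0.08). Trpm6, Trpm3 and Trpm2 changed by 0.23 (SE 0.13), 0.10 (SE 0.10) and −0.03 (SE 0.09). Trpv1, the capsaicin receptor of sensory nerve, changed by 0.22 (SE 0.20, 95% interval −0.23 to 0.67). Trpv2 lay between 6.24 and 6.48 in wild type and between 6.26 and 6.62 in knockout aortas, a change of 0.12 (SE 0.09). Trpc4ap, the binding protein, changed by 0.01 (SE 0.07).

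Channel genes that were not tested numbered 12. Cacng1, Trpc4, Trpc5, Trpm1, Trpm5, Trpm8 and Trpv6 lay below the floor of 4 on all 9 arrays, between 2.13 and 3.94. Cacng3 was over it only on wild type replicate 3, at 4.14. Trpc6, a stretch- and receptor-operated channel known from vascular muscle, was over it on 3 arrays of both genotypes, wild type replicates 3 and 5 and knockout replicate 4, with a highest value of 4.53. A low value on 1 probe set gives no level for the transcript, and no level is compared here between genes.

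The median range over the 9 arrays was 0.66 for the tested channel genes and 0.53 for all tested genes, and 7 of 41 (17.1%) ranged over more than 1, as did 16.6% of all genes. Wild type replicate 3 held the highest value of 9 channel genes and the lowest of 11, and knockout replicate 5 the highest of 11. The corresponding shares were 22.0%, 26.8% and 26.8% of the tested channel genes, and 16.3%, 25.5% and 22.7% of all tested genes. Larger departures from the share of all genes lay elsewhere. Wild type replicate 1 held the lowest value of 9 channel genes, or 22.0% against 9.27% of all tested genes. Knockout replicate 5 held the lowest of 1, or 2.44% against 13.8%.

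**Figure D5:**
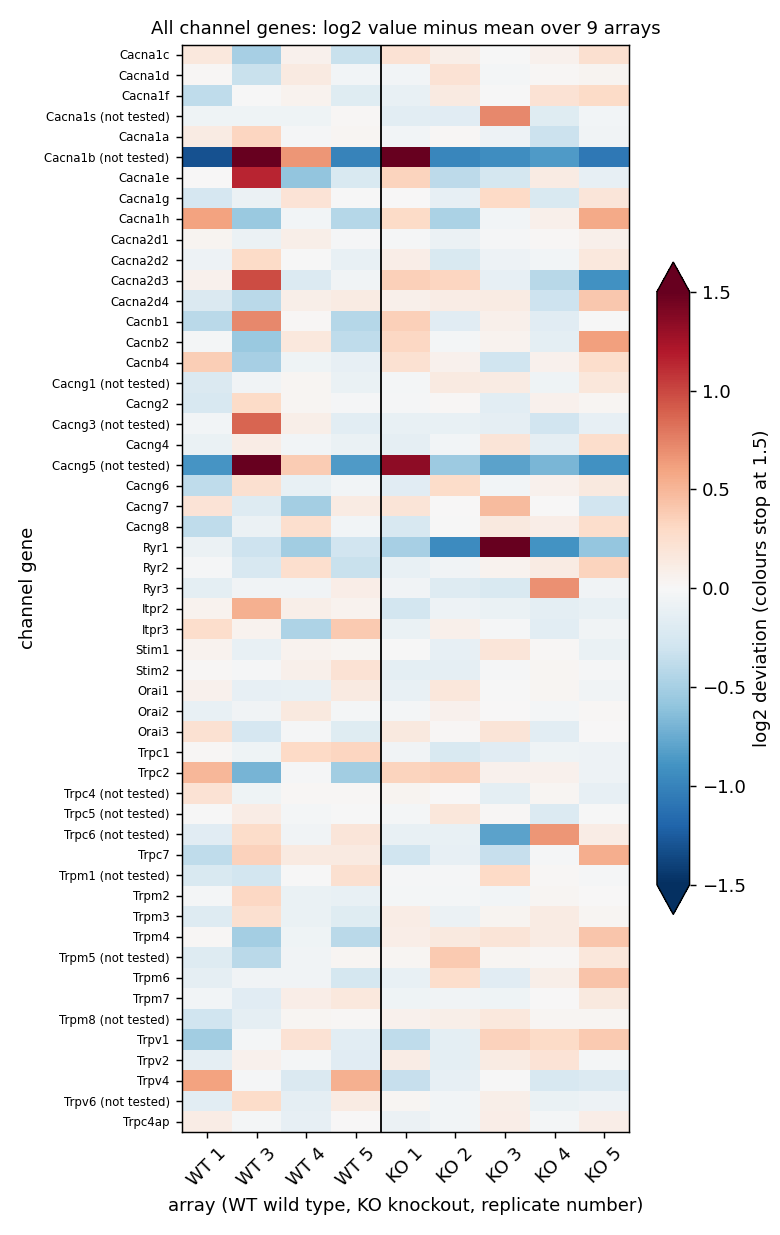
Log2 value of each of the 53 channel genes (rows, by family) minus its mean over the 9 arrays (columns, WT wild type and KO knockout, the black line dividing them); colours stop at a deviation of 1.5. The strongest colours are single arrays: Cacna1b and Cacng5 on WT 3 and KO 1, and Ryr1 on KO 3.

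Around the channels, 98 genes of calcium handling were listed in 6 groups, and 82 were tested. Only Atp2b4, a plasma membrane calcium pump, passed: it read 9.86, 9.47, 9.62 and 9.72 in wild type and 10.40, 10.67, 10.55, 10.28 and 10.43 in knockout aortas, with no overlap, a change of 0.80 (SE 0.10, adjusted p = 0.042, limma). It stayed between 0.72 and 0.86 under 20 alternatives, but the call was lost in 11 of them, among them the replicate block (adjusted p = 0.357) and the omission of any array other than wild type replicate 1 or knockout replicate 4 (adjusted p from 0.085 to 0.146, limma). In all 16 had an unadjusted p under 0.05 (limma), or 19.5% against 19.9% of all genes. Of these 12 were higher and 4 lower, where 12.8% of all tested genes were higher and 7.12% lower at this p. Of the 82 genes 61.0% lay above 0, against 56.7% of all tested genes, and the counts by group below stand beside that share. Pumps and exchangers were split (8 of 14 above 0, median 0.02), as were store and couplon proteins (9 of 20 above 0, median −0.01). Of genes of calmodulin and its kinases 8 of 9 lay above 0 (median 0.14), of the Gq and phospholipase C supply of IP3 12 of 15 (median 0.11), of channel partners 12 of 17 (median 0.05), and of mitochondrial uptake 1 of 7 (median −0.02). These medians moved with single arrays: that of calmodulin and its kinases was 0.06 without wild type replicate 3, 0.09 without wild type replicate 4, 0.09 without knockout replicate 4 and 0.23 without knockout replicate 2. That of channel partners was 0.02 on leaving out wild type replicate 4 and 0.03 on leaving out knockout replicate 3, and stood at 0.10 with wild type replicate 3 or 5 left out, and that of mitochondrial uptake −0.06, −0.05 and −0.04 without wild type replicate 1, wild type replicate 4 and knockout replicate 3. The medians of pumps and of store proteins lay on either side of 0, from −0.01 to 0.04 and from −0.03 to 0.03.

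Among those that regulate the channels directly, Rrad, a small GTPase that inhibits L-type channels through the β subunit, read 7.89, 7.36, 7.77 and 7.63 in wild type and 9.13, 8.90, 8.48, 8.07 and 8.82 in knockout aortas. The groups did not overlap, and the change was 1.02 (SE 0.21, 2.02-fold, adjusted p = 0.105, limma), short of the threshold. Mrvi1, the IP3 receptor-associated substrate of cyclic GMP-dependent kinase, stood at 0.22 (SE 0.08), the kinase genes Camk2g, Camk2b and Camk1 at 0.36 (SE 0.12), 0.46 (SE 0.18) and 0.28 (SE 0.08), and Septin4 at 0.48 (SE 0.12). The lysosomal channel gene Tpcn2 stood at 0.32 (SE 0.10), the sodium leak channel gene Nalcn at 0.25 (SE 0.08), the phospholipase gene Plcg1 at 0.16 (SE 0.06), the IP3 kinase gene Itpkb at 0.13 (SE 0.05) and the mitochondrial exchanger gene Slc8b1 at 0.28 (SE 0.11). Below 0 were Mcu, the pore of mitochondrial calcium uptake, at −0.25 (SE 0.06), the sodium-calcium exchanger genes Slc8a3 and Slc24a4 at −0.52 (SE 0.15) and −0.60 (SE 0.18), and the calcium store protein gene Casq2, also a cardiomyocyte marker, at −0.71 (SE 0.27). The adjusted p-values of these 14 genes, Rrad and Atp2b4 left out, ran from 0.131 to 0.226 (limma), so none is called changed.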

How the data were processed

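The authors deposited 1 value per probe set made with GCRMA, per the submitters' processing notes; its version, its scale and a genome build are not given in the sources used here. The deposited values were read as log2, an inference from arrays that run from about 1.75 to 14.81, and were not scaled again. Of 45101 probe sets, 34945 carry 1 platform symbol and were kept; a probe set was tested if over 4 on at least 4 arrays (26504), and a gene was read on its brightest probe set (14321 genes). The test of genotype was limma's (version 3.58.1, under R 4.3.3; lmFit and eBayes without covariates), adjusted by Benjamini-Hochberg over all tested genes at 0.05; the code was tested on simulated data. p-values measure the spread between these biological replicates, whose number limits the precision. The members and lists were chosen with earlier results of these data known. Named genes are Ptgds, members with an unadjusted p under 0.05 or groups that do not overlap, the brightest member of each family, members not tested, and pathway genes with an unadjusted p under 0.05; other members are given by their change, and a few of known vascular role (Cacna1c, Orai1) with array values, chosen after these were seen. The main fit did not pair the groups by replicate number, and any shared litter is not given. The deviations of same-numbered arrays correlated at −0.36, −0.15, 0.06 and 0.21. So few values cannot show whether a pairing existed. Alternatives were another normalization or centring, filter, probe set rule, prior, array weights, a replicate block and fewer arrays.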

Additional observations from a re-analysis of the deposited data

Results flagged for a closer look

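Of the 106 groups examined (53 channel genes in 2 genotypes), 13 (12.3%) held an array whose gap to the nearest other array was large against the range of its group, where chance flags about 1 in 20 and 9.47% of the 36386 such groups of all 18193 genes met the same criterion. High values on knockout replicate 3 were 9.32 for Ryr1, 4.11 for Cacna1s and, near background, 3.75 for Trpm1. Knockout replicate 1 was high for Cacna1b (6.07) and Cacng5 (5.06). Wild type replicate 3 was high for Itpr2 (9.99) and, below the floor, Trpc5 (2.51), and low for Stim1 (8.04). Knockout replicate 4 was high for Ryr3 (6.46) and low for Cacna1a (7.21) and, below the floor, Cacng3 (2.98). Knockout replicate 5 was high for Trpm4 (9.87), and wild type replicate 5, below the floor, for Cacna1s (3.40). The other 3 wild type arrays held an identical Cacna1s value of 3.32, so any other value would have been flagged.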

How the results depend on the processing

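Over all genes the count of 8 became 19 with a floor of 6, 33 with the trend and robust options, 73 with array weights, and ran from 2 to 1071 when single arrays were left out (1071 without wild type replicate 1, 16 without knockout replicate 4, 2 to 4 otherwise). In 2 settings chosen after seeing the data it was 3 without wild type replicate 3 and knockout replicate 1, and 1 without knockout replicate 3 as well. With the replicate block it was 0 in limma (1963 genes at an unadjusted p under 0.05), and 0 channel genes passed there too. Ptgds, still at −5.30, had an adjusted p of 0.126 with the block (limma). Wild type replicate 2 has no values, so knockout replicate 2 had no partner and added nothing to the genotype change in this setting. The change of Atp2b4 was 0.75 both there and without knockout replicate 2. A term for each replicate also leaves fewer degrees of freedom. Among the channels the count of 0 became 1 (Trpm4) without wild type replicate 1, and ran from 0 to 1 over the single arrays; under the other 19 alternatives it was 0, with 2 to 8 at an unadjusted p under 0.05. Of the tested channel genes 14 of 24 lay above 0 with a floor of 6, where fewer genes were tested, and 24 to 28 of 41 without single arrays. Trpm4 (0.35 to 0.53), Itpr2 (−0.55 to −0.17), Trpc1 (−0.35 to −0.21), Trpv4 (−0.56 to −0.29) and Cacna1a (−0.26 to −0.09) kept their sign under all 20 alternatives, with an unadjusted p under 0.05 in 20, 19, 18, 11 and 5 of them. Itpr2 stood at −0.17 without wild type replicate 3 and knockout replicate 1. Its −0.55 came from another probe set, 1444418_at, read once _s_at and _x_at probe sets were left out. Ryr1 ran from −0.43 (without knockout replicate 3) to 0.84 when single arrays were left out, and turned to −0.50 without the 3 arrays richest in neuron or skeletal muscle markers; it had no value with a floor of 6 or as the mean of all probe sets. The 12 channel genes not tested are limited by signal over background.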

Other observations

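Over all probe sets of the channel genes, 73 of 117 were tested, and 10 had an unadjusted p under 0.05, or 13.7% against 18.9% of all tested probe sets; 0 passed the adjusted threshold (limma), where 21 of 26504 did over all probe sets. Beside those described above, 4 of the 10 stand on probe sets that were not the brightest of their gene, and they were chosen after their values were seen. On 1426108_s_at of Cacnb1 the values were 6.08, 5.63, 5.70 and 5.48 in wild type and 6.07, 6.22, 6.18, 6.06 and 6.29 in knockout aortas, a change of 0.44 (SE 0.12), while the brighter probe set of Cacnb1 stood at 0.04 and was highest on wild type replicate 3. On 1436854_at of Trpc2 the change was 0.61 (SE 0.20), with 0.33 on the brighter probe set. On 1441608_at of Cacna2d1 it was 0.23 (SE 0.10), against −0.01 on the brighter one, and on 1450510_a_at of Cacna1a it was −0.21 (SE 0.09), like the brighter one. Their adjusted p-values over all probe sets ran from 0.134 to 0.241 (limma).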
